A study of Mus musculus with 6 samples.

Results

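A set of 8 genes of cholesterol supply was followed in whole testes of 5 days postpartum (dpp) mice. None of them passed the main test, in which no gene at all was called. The 8 genes, *Hmgcs1*, *Idi1*, *Fdft1*, *Sqle*, *Lss*, *Cyp51*, *Dhcr7* and *Insig1*, were taken by name from a table of 54532 genes. They are 7 enzymes of cholesterol synthesis and 1 regulator of it, and no uptake receptor is among them, so uptake genes were read from a separate list. Samples were 3 testes labelled Ctrl and 3 from conditional knockout (cKO) mice. In the cKO, *Vasa*-Cre, which is active in germ cells, removed floxed exons of *Srsf1*, which encodes an RNA-binding splicing factor. The study writes the cKO genotype as *Vasa*-Cre *Srsf1* Fl/del, that is, with 1 floxed and 1 deleted allele. The labels give the genotypes only as "Ctrl" and "cKO - Srsf1", so which alleles or transgenes the Ctrl mice carried is not stated in the sources used here. The comparison of cKO with Ctrl asked whether genes that supply sterol to the testis differ in level when *Srsf1* is lost from germ cells.

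Values are FPKM, fragments scaled to gene length and to a library size, which allows levels of different genes to be compared per length. Reads on genes, recovered from these values, summed to between 15448191 and 18964743 per sample. The library sizes used in the scaling were near these sums but not equal to them. *Srsf1* itself, the check of the labels, was at 86.6 ± 3.85 FPKM (SD, n = 3) in Ctrl and 47.7 ± 3.48 FPKM (SD, n = 3) in cKO testes, with no overlap between the groups. Its log2 fold change was -0.85 ± 0.087 (SE) and limma's adjusted p was 0.0578. *Vasa*-Cre targets germ cells and not the somatic cells of the testis. Whether somatic cells of the cKO also carried the deleted allele of the Fl/del genotype is not stated. Each value sums RNA of all cells in the testis, so fewer cells of a type and less RNA per cell cannot be told apart. The extraction protocol in the labels names retinas although the tissue is given as testis. All 6 retina markers examined had a mean under 0.5 FPKM and summed to between 0.241 and 0.767 FPKM per sample, whereas the steroidogenic cell marker *Star* averaged 26.8 ± 7.73 FPKM over the Ctrl samples (SD, n = 3).

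Cholesterol is built from acetyl-CoA through mevalonate, isoprenoid units, squalene and lanosterol, and it is the starting material of every steroid hormone. When sterol in the endoplasmic reticulum runs low, the transcription factor SREBP2, encoded by *Srebf2*, is carried by SCAP to the Golgi, cleaved and released to the nucleus, where it raises the genes of sterol synthesis together. INSIG1 holds the SCAP complex back in the endoplasmic reticulum, and *Insig1* is itself a target of SREBP2. In the testis, Leydig cells turn cholesterol into androgens, and germ cells and Sertoli cells also make sterols.

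Promoter sequences are shown because the 8 genes are known as genes that answer to 1 sterol signal. Of the 8 genes, 6 were matched by symbol to RefSeq promoters on the GRCm38.p6 build, each running from 250 bases before to 50 bases after a start site. *Sqle* and *Fdft1* had no entry. The 3 stretches below run from 250 to 51 bases before the RefSeq start, 5′ to 3′ on the gene's strand. They are chr13:119690101-119690300 on the plus strand for *Hmgcs1*, chr5:4104748-4104947 on the minus strand for *Cyp51*, and chr5:28071162-28071361 on the plus strand for *Insig1*. Capitals mark, on either strand, the sterol regulatory element TCACNCCAC, the NF-Y box CCAAT and the Sp1 box GGGCGG. No match overlaps another in these stretches.
Hmgcs1: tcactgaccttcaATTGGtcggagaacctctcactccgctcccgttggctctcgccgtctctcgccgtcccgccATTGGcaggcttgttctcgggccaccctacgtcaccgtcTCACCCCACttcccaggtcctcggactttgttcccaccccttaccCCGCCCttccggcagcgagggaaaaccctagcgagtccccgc
Cyp51: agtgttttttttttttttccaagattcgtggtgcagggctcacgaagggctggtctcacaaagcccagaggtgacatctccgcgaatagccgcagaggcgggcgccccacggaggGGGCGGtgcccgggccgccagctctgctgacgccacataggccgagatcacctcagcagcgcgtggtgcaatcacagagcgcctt
Insig1: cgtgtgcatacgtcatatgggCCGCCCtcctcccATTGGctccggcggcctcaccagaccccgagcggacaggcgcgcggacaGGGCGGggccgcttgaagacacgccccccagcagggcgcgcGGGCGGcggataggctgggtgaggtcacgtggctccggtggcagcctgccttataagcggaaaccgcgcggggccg

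The exact sterol element was found in 1 of the 6 matched promoters, that of *Hmgcs1*, at 137 to 129 bases before the start, against 1.44% of all 27025 genes with a promoter in the table. The NF-Y box was found in 6 of 6 matched genes and in 41.1% of all genes. The Sp1 box was also found in 6 of 6, against 38.2% of all genes and 68.0% of the genes tested here that had an entry. The *Cyp51* stretch above holds 1 Sp1 box, and its NF-Y box lies closer to the start than the bases printed. The *Insig1* stretch holds 3 Sp1 boxes and 1 NF-Y box. These are matches of letters in a fixed window and not measured binding sites.

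*Hmgcs1* (ENSMUSG00000093930, chr13:119690379-119708260, plus strand, GRCm38) encodes the cytosolic HMG-CoA synthase at the entry to the mevalonate pathway. Its level was 64.0, 67.3 and 51.0 FPKM over Ctrl 1 to 3, while cKO 1 to 3 gave 61.6, 48.7 and 62.7 FPKM; values below follow that order. The groups overlapped throughout, with Ctrl 3 and cKO 2 as the low samples of their groups. The log2 fold change, cKO minus Ctrl on log2(FPKM + 1), was -0.07, with a 95% interval from -0.41 to 0.26 and an adjusted p of 0.838 by limma. It was the highest of the 8 genes in every sample, and 3733 to 5884 reads per sample stood behind it. Its antisense gene *Gm48342*, whose transcripts held 10% of the same 50-base stretches, averaged 0.0502 FPKM in Ctrl and 0.146 FPKM in cKO samples.

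*Idi1* (ENSMUSG00000058258, chr13:8885501-8892451, plus strand) encodes isopentenyl-diphosphate isomerase, which makes the second of the isoprenoid building blocks. Its values were 12.1, 16.0 and 9.49 FPKM over the Ctrl samples and 10.1, 8.11 and 9.33 FPKM over the cKO samples. Only cKO 1 reached into the Ctrl range, above Ctrl 3. It differed by -0.39 on the log2 scale (95% interval from -0.81 to 0.03), with an adjusted p of 0.341 by limma. The deposited table does not show how reads common to gene copies were counted, and 25.3% of the 50-base stretches of *Idi1* transcripts also occurred in other genes, with 17.7% of all its stretches found in *Gm13502*.

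*Fdft1* (ENSMUSG00000021273, chr14:63145150-63179578, minus strand) encodes squalene synthase, the first enzyme committed to sterols. It was at 24.9, 29.9 and 20.3 FPKM over the Ctrl samples, while the cKO samples gave 18.9, 18.4 and 20.4 FPKM. The groups overlapped by a small margin, since cKO 3 stood just above Ctrl 3. The log2 fold change was -0.35 (95% interval from -0.67 to -0.02), with an unadjusted p of 0.0405 and an adjusted p of 0.298 by limma. *Fdft1* overlaps *Ctsb* on the opposite strand, which averaged 65.5 FPKM over Ctrl and 67.3 FPKM over cKO samples. *Ctsb* transcripts shared 17.2% of the 50-base stretches of *Fdft1*, and whether counting used strand is not given in the sources used here.

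*Sqle* (ENSMUSG00000022351, chr15:59315077-59331192, plus strand) encodes squalene epoxidase, a rate-limiting step after squalene. Its values were 18.7, 18.5 and 13.6 FPKM over the Ctrl samples and 15.0, 11.4 and 17.9 FPKM over the cKO samples. The groups overlapped, with Ctrl 3 and cKO 2 lowest again. On the log2 scale the change was -0.19 (95% interval from -0.62 to 0.23), with an adjusted p of 0.631 by limma.

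*Lss* (ENSMUSG00000033105, chr10:76531588-76557138, plus strand) encodes lanosterol synthase, which closes the sterol rings. It was the lowest of the 8 genes in every sample, at 3.63, 3.54 and 2.66 FPKM over the Ctrl samples, while the cKO samples gave 2.89, 2.85 and 2.69 FPKM. Ctrl 3 lay below all cKO samples and the other Ctrl samples lay above them. The log2 fold change was -0.16 (95% interval from -0.44 to 0.12), with an adjusted p of 0.552 by limma, and its 449 to 727 reads per sample were fewer than for most of the other genes.

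*Cyp51* (ENSMUSG00000001467, chr5:4081145-4104746, minus strand) encodes lanosterol 14α-demethylase. It was the exception in direction, at 21.1, 23.7 and 18.2 FPKM over the Ctrl samples, while the cKO samples gave 24.3, 19.8 and 25.4 FPKM. The groups overlapped, with cKO 1 and cKO 3 above every Ctrl sample and cKO 2 inside the Ctrl range. It had a log2 fold change of 0.14 (95% interval from -0.17 to 0.44), with an adjusted p of 0.644 by limma. Transcripts of *Akap9*, which overlaps *Cyp51* on the opposite strand, shared 2.63% of its 50-base stretches.

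*Dhcr7* (ENSMUSG00000058454, chr7:143823145-143848410, plus strand) encodes 7-dehydrocholesterol reductase, the last step to cholesterol in one branch of the pathway. It was at 8.69, 10.5 and 9.67 FPKM over the Ctrl samples, while the cKO samples gave 8.39, 7.91 and 8.39 FPKM. All cKO samples lay below all Ctrl samples, although Ctrl 1 stood close to the cKO values. Its log2 fold change was -0.20 (95% interval from -0.41 to 0.02), with an adjusted p of 0.351 by limma.

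*Insig1* (ENSMUSG00000045294, chr5:28071363-28078662, plus strand) encodes the protein that retains the SCAP complex. It was at 29.9, 38.1 and 22.0 FPKM over the Ctrl samples, while the cKO samples gave 21.0, 20.4 and 21.5 FPKM. All cKO samples lay below all Ctrl samples, with Ctrl 3 just above the highest cKO sample. The Ctrl mean was 30.0 ± 8.04 FPKM and the cKO mean was 21.0 ± 0.546 FPKM (SD, n = 3 each), which was 70.0% of Ctrl. The log2 fold change of -0.46 (95% interval from -0.88 to -0.04) was the most negative of the 8 genes, with an unadjusted p of 0.0357 and an adjusted p of 0.289 by limma.

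**Figure D1:**
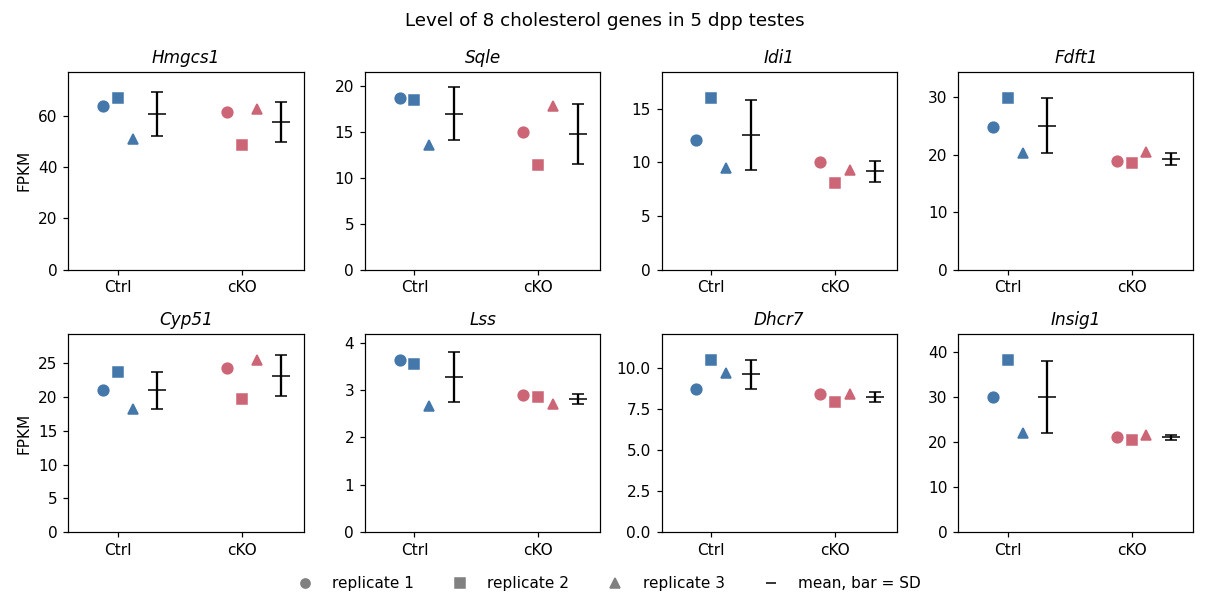
FPKM of each of the 8 genes in 5 dpp testes, 1 panel per gene with its own axis from 0; symbols are the 3 Ctrl (blue) and 3 cKO (red) samples and the bars beside them are the mean with its SD. *Dhcr7* and *Insig1* are the genes whose groups do not overlap, and the Ctrl values of *Insig1* spread from 22.0 to 38.1 FPKM while its cKO values lie between 20.4 and 21.5 FPKM.

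Of the 8 genes, 0 passed an adjusted p of 0.05 by limma in either direction, and among the 16206 genes tested 0% were called lower and 0% were called higher. This fit thus called no gene at all, not even *Srsf1*, whereas the study reports genes called in both directions with DESeq2 on counts. The lack of a call therefore does not show that the 8 genes were unchanged. At an unadjusted p under 0.05 by limma, 2 of 8 were lower, *Fdft1* and *Insig1*, and 0 were higher. Over all tested genes the same limit was passed downwards by 9.31% and upwards by 6.60%. With limma voom on recovered reads the lowest adjusted p among the 8 genes was 0.197, and 0 of the 8 were called. Without overlap between the groups, 2 of 8 were lower, against 12.8% of all tested genes, and 0 were higher, against 10.3%. Negative log2 fold changes were given by 7 of 8 genes, against 49.5% of all tested genes, and the median over the 8 was -0.20, against 0.003 over all tested genes. The genes share libraries and are known to be regulated together, so the 7 are not 7 separate observations.

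The order of the levels was nearly the same in both groups. From high to low by the Ctrl mean it was *Hmgcs1*, *Insig1*, *Fdft1*, *Cyp51*, *Sqle*, *Idi1*, *Dhcr7* and *Lss*, from 60.8 to 3.28 FPKM. The ranges over the 3 Ctrl samples overlapped between all neighbours in that order except *Hmgcs1* and *Insig1*, and *Dhcr7* and *Lss*. In cKO testes *Cyp51*, at 23.2 ± 3.0 FPKM (SD, n = 3), stood second, ahead of *Insig1* and *Fdft1*. Its range overlapped that of *Insig1*, and the ranges of *Insig1* and *Fdft1* and of *Idi1* and *Dhcr7* overlapped as well.

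The spread between replicates was shared by most of the 8 genes. Among the Ctrl samples, Ctrl 3 was the lowest for 7 of 8 genes, all but *Dhcr7*, and Ctrl 2 was the highest for 6 of 8. Among the cKO samples, cKO 2 was the lowest for 7 of 8, all but *Lss*. Over all tested genes, Ctrl 3 was the lowest Ctrl sample for 30.5% and cKO 2 the lowest cKO sample for 33.2%. The mean log2(FPKM + 1) of the 8 genes was 4.20, 4.38 and 3.93 over the Ctrl samples and 4.01, 3.83 and 4.04 over the cKO samples. The range within Ctrl was thus wider than the distance between most Ctrl and cKO samples, and Ctrl 3 lay below cKO 1 and cKO 3.

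**Figure D2:**
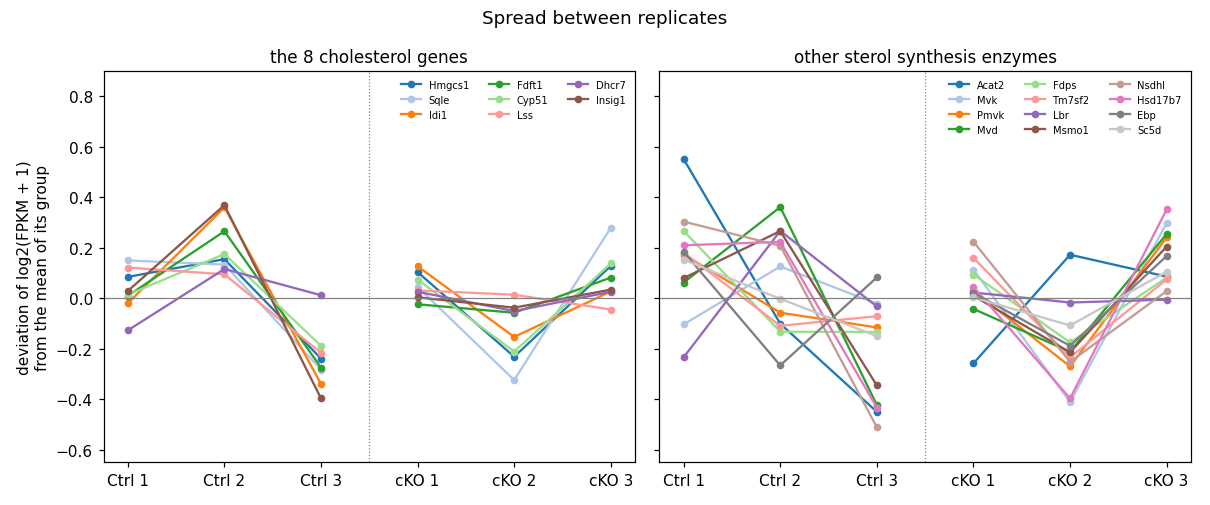
Deviation of log2(FPKM + 1) from the mean of its own group in each sample, for the 8 genes (left) and for 12 other enzymes of sterol synthesis (right); lines join the values of 1 gene and give no order to the replicates. Most lines on the left fall at Ctrl 3 and at cKO 2, and those of *Dhcr7* at Ctrl 3 and *Lss* at cKO 2 do not.

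Once the group means were taken away, each gene could be set beside the mean of the other 7 over the 6 samples. As a description, with no test, Pearson's r of these deviations was 0.943 for *Idi1*, 0.933 for *Fdft1*, 0.931 for *Cyp51*, 0.918 for *Hmgcs1* and 0.890 for *Insig1*. It was lower for *Sqle*, at 0.782, for *Lss*, at 0.686, and for *Dhcr7*, at 0.358. *Cyp51* therefore followed the other genes from sample to sample within a group, while its mean moved the other way between the groups. The points share libraries, and their scaling and cell make-up, and with 2 means removed the 6 points hold little information. An r over 0.8 with the mean of the 8 genes was also found for 825 of 16198 other tested genes, which is 5.09%.

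Germ cell markers moved with the groups and with 1 of these samples. The FPKM of each gene was taken as a percentage of its Ctrl mean and averaged over the genes of a list. The 19 germ cell markers above the filter stood at 68.4%, 164.2% and 67.5% over the Ctrl samples and at 26.5%, 39.7% and 30.0% over the cKO samples. Without overlap, 17 of them were lower in cKO, against 12.8% of all tested genes, and 0 were higher. Ctrl 2, the highest in germ cell markers, was thus also the highest Ctrl sample for 6 of the 8 genes, whereas Ctrl 1 and Ctrl 3 were nearly equal in germ cell markers and differed in the 8 genes. The same measure for 9 Leydig cell markers was 94.9%, 89.2% and 115.9% in Ctrl and 138.6%, 120.4% and 127.8% in cKO, with 5 of 9 higher without overlap, against 10.3% of all tested genes. Of 15 Sertoli cell markers, 4 were lower and 3 were higher without overlap, and their median log2 fold change was -0.05. *Star*, which carries cholesterol into mitochondria, was at 28.8, 18.2 and 33.3 FPKM over the Ctrl samples, while the cKO samples gave 27.0, 20.1 and 29.4 FPKM, so its groups overlapped. The part of cell make-up in the values of the 8 genes was not tested.

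Ctrl 3 had the most weight in how many genes were separated between the groups. It was the lowest Ctrl sample for 7 of the 8 genes, against 30.5% of all tested genes. Leaving it out therefore favours separation of the 8 genes over that of other genes. Without Ctrl 3, 7 of 8 genes, all but *Cyp51*, were lower in cKO without overlap, as were 18.7% of all tested genes. Without cKO 1, 3 genes were lower without overlap, *Idi1*, *Dhcr7* and *Insig1*, and without cKO 3 these were *Fdft1*, *Dhcr7* and *Insig1*. Without Ctrl 1, Ctrl 2 or cKO 2 the genes were *Dhcr7* and *Insig1*, and without cKO 2 *Cyp51* was higher without overlap. The share over all tested genes was taken only without Ctrl 3, so the other counts have no background here. Smaller groups also separate more easily. The lowest adjusted p of any of the 8 genes when 1 sample was left out, 0.124 by limma for *Insig1* without Ctrl 3, did not pass the threshold.

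Ratios between the 8 genes within a sample do not depend on how samples are scaled to each other. They were examined after the values were seen and are given as a description. The ratio of *Cyp51* to *Insig1* was 0.706, 0.622 and 0.828 over the Ctrl samples and 1.16, 0.968 and 1.18 over the cKO samples. *Cyp51* was thus below *Insig1* in every Ctrl sample and above it in cKO 1 and cKO 3. The mean ratio was 0.719 ± 0.103 in Ctrl and 1.10 ± 0.117 in cKO (SD, n = 3 each).

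The ratio of *Cyp51* to *Fdft1* was 0.848, 0.793 and 0.899 over the Ctrl samples and 1.29, 1.07 and 1.25 over the cKO samples. With *Hmgcs1*, whose own change was the smallest, the ratio was 0.329, 0.352 and 0.357 over the Ctrl samples and 0.394, 0.406 and 0.406 over the cKO samples. All 7 ratios of *Cyp51* to another of the genes were higher in cKO without overlap. Ratios of *Cyp51* to any tested gene above 0 in all 6 samples did so for 15.3% of 15764 genes. The 7 ratios share *Cyp51*, the 1 gene of the 8 with a positive log2 fold change, so they are not 7 separate observations. Of all 28 ratios between the 8 genes, 11 did not overlap between the groups, or 39.3%, against 23.9% of all pairs of 15765 genes. The other 4 were those of *Hmgcs1* to *Insig1*, *Idi1* and *Fdft1*, and of *Lss* to *Insig1*, all higher in cKO. All 28 ratios reuse the same 8 genes and are not separate observations either.

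**Figure D3:**
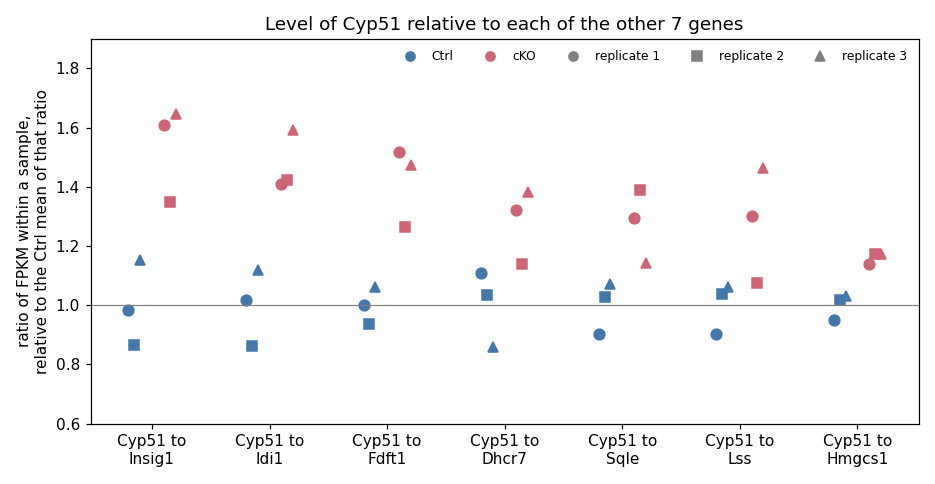
Ratio of *Cyp51* FPKM to that of each of the other 7 genes within a sample, divided by the Ctrl mean of that ratio, so that 1 is the Ctrl mean; the vertical axis starts at 0.6, and symbols are the 3 Ctrl (blue) and 3 cKO (red) samples. All 3 red symbols lie above all 3 blue symbols for each of the 7 ratios.

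The other 14 enzymes of sterol synthesis all passed the filter on low values and 0 were called. At an unadjusted p under 0.05 by limma 3 of 14 were lower, against 9.31% of all tested genes, and 0 were higher, against 6.60%. Without overlap 2 of 14 were lower, near the 12.8% of all tested genes, and 0 were higher, against 10.3%. The median log2 fold change was -0.22, with values from -0.54 to 0.24, and 9 of 14 were negative, against 49.5% of all tested genes. Without Ctrl 1 the median was -0.10, without cKO 2 it was -0.13, and without Ctrl 3 it was -0.32.

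*Lbr*, which encodes a sterol C14 reductase of the nuclear envelope, was at 14.5, 20.9 and 16.8 FPKM over the Ctrl samples, while the cKO samples gave 13.1, 12.7 and 12.9 FPKM. Its groups did not overlap, and its log2 fold change was -0.39 ± 0.129 (SE) and limma's adjusted p was 0.233. In this list too the low samples were Ctrl 3, lowest of Ctrl for 10 of 14 enzymes, and cKO 2, lowest of cKO for 13 of 14.

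Among 8 genes that sense sterol or process SREBP, the median log2 fold change was 0.07 and 0 were called. Without overlap 1 of 8 was lower, against 12.8% of all tested genes, and 1 was higher, against 10.3%. *Srebf2* was at 24.0, 23.2 and 21.2 FPKM over the Ctrl samples, while the cKO samples gave 20.4, 20.6 and 20.9 FPKM. Every cKO sample was lower, by a log2 fold change of -0.13 ± 0.079 (SE) with an adjusted p of 0.451 by limma. *Scap* was at 20.9, 17.5 and 22.3 FPKM over the Ctrl samples, while the cKO samples gave 25.0, 24.7 and 25.6 FPKM. Its groups did not overlap in the other direction, with a log2 fold change of 0.31 ± 0.102 (SE) and an adjusted p of 0.233 by limma. *Insig2*, the paralog of *Insig1*, overlapped between the groups with means of 12.5 ± 0.294 FPKM in Ctrl and 13.5 ± 1.6 FPKM in cKO samples (SD, n = 3 each). Its log2 fold change was 0.10 (95% interval from -0.14 to 0.33), whereas that of *Insig1* was -0.46, and the difference between the paralogs was not tested.

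Uptake and lysosomal release were represented by 11 genes, of which 10 passed the filter and 0 were called. Their median log2 fold change was -0.01. Without overlap 1 of the 10 was lower, against 12.8% of all tested genes, and 0 were higher, against 10.3%. That gene was *Lrp8*, a receptor that binds apolipoprotein E and reelin, with means of 0.801 ± 0.0970 FPKM in Ctrl and 0.517 ± 0.134 FPKM in cKO samples (SD, n = 3 each). Its low level rested on 63 to 180 reads per sample, and its log2 fold change of -0.25 had an adjusted p of 0.419 by limma. Chosen after their values were seen, *Stard4*, a carrier of cholesterol between membranes, had a log2 fold change of -0.40 and *Scarb1*, the HDL receptor, one of 0.36. Their unadjusted p-values by limma were 0.0452 and 0.0391, and their adjusted p-values were 0.305 and 0.294.

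Genes of sterol efflux and the LXR receptors act when sterol is plentiful. They were read together with genes that store cholesterol esters or, as *Nceh1* does, release cholesterol from them. Of these 8 genes, 7 were above the filter and 0 were called. Log2 fold changes ran from -0.12 to 0.49, and 2 of the 7 were negative and 5 positive. The median was 0.12, and it fell to 0.02 without cKO 3. Without overlap 2 of the 7 were higher, *Apoe* and *Nceh1*, against 10.3% of all tested genes. In the other direction 0 were lower without overlap, against 12.8%. *Apoe*, the main apolipoprotein made in peripheral tissue, was at 107.6, 74.1 and 102.5 FPKM over the Ctrl samples, while the cKO samples gave 145.0, 135.0 and 117.5 FPKM. All cKO samples were higher, with a log2 fold change of 0.49 ± 0.159 (SE) and an adjusted p of 0.220 by limma. *Nceh1*, a cholesteryl ester hydrolase, was at 4.13, 4.45 and 4.99 FPKM over the Ctrl samples, while the cKO samples gave 6.18, 5.98 and 5.68 FPKM. All cKO samples were higher here as well, with a log2 fold change of 0.33 ± 0.095 (SE) and an adjusted p of 0.187 by limma. Macrophages express both genes strongly. The 10 macrophage markers above the filter stood at 111.6%, 83.8% and 104.5% of the Ctrl mean in Ctrl samples. In cKO samples they stood at 126.4%, 122.6% and 100.3%. The groups of all 10 markers overlapped, so 0 were higher without overlap, against 10.3% of all tested genes. Their log2 fold changes ran from -0.24 to 0.62, with 3 negative and 7 positive. The part of these cells in the values of *Apoe* and *Nceh1* was not tested.

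The neighbouring branches had medians smaller in size than the -0.20 of the 8 genes. The 5 genes that turn isoprenoids into dolichol, ubiquinone side chains and geranylgeranyl groups had a median log2 fold change of -0.06, and the groups of all 5 overlapped. The 10 genes of fatty acid synthesis, which answer mainly to SREBP1, had a median of -0.05 with values from -0.21 to 0.25, and the groups of all 10 overlapped. In neither list was a gene called or under an unadjusted p of 0.05 by limma. Over all tested genes that limit was passed downwards by 9.31% and upwards by 6.60%, and 0% were called. Without overlap, 12.8% of all tested genes were lower and 10.3% were higher. Lists of 5 and 10 genes are short for such shares, so these counts do not show that the branches were unchanged.

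**Figure D4:**
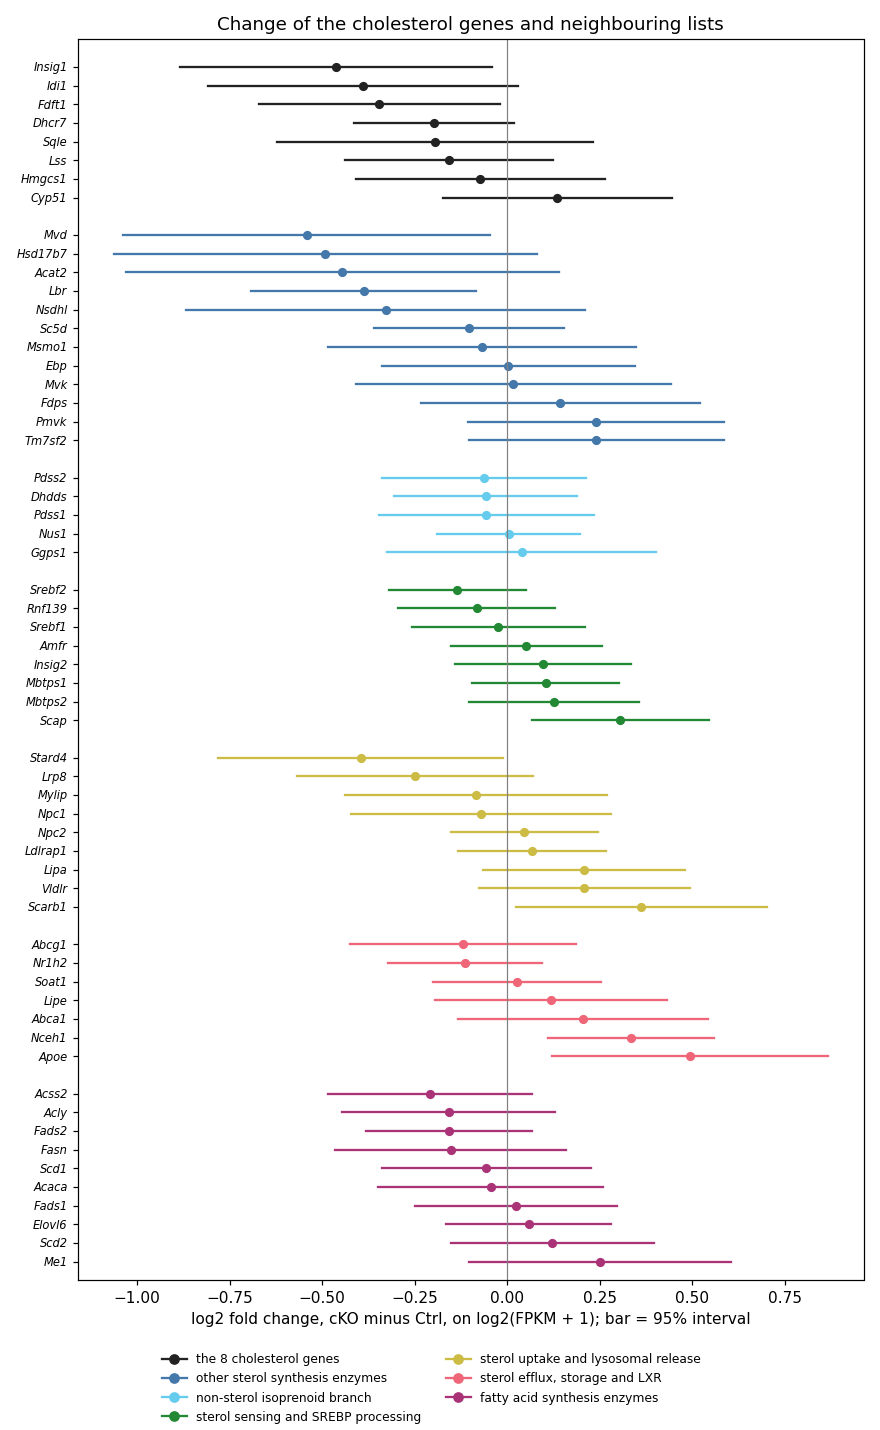
Log2 fold change, cKO minus Ctrl on log2(FPKM + 1), of the 8 genes and of genes from 6 related lists; points are estimates from limma over 3 Ctrl and 3 cKO samples, bars their 95% intervals, and colours the lists. Intervals that leave 0 are few and none of these genes passed an adjusted p of 0.05, with *Insig1* the most negative of the 8 genes at -0.46 and *Cyp51* the positive one at 0.14.

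Protein-coding genes whose pattern over the 6 samples was most like the mean of the 8 genes were *Mum1*, *Cc2d1b*, *Armc6*, *Rcl1* and *Zw10*, with Pearson's r from 0.993 to 0.988 on log2(FPKM + 1). These were the 5 highest among genes that averaged 5 FPKM or more. *Mum1* was at 10.4, 11.7 and 9.16 FPKM over the Ctrl samples, while the cKO samples gave 9.49, 8.74 and 9.50 FPKM. It was thus highest in Ctrl 2 and lowest in cKO 2, as the mean of the 8 genes was. The likeness describes 6 libraries, and all genes of a library share its depth and cell make-up. The 8 genes themselves were left out of the candidates, and no other enzyme of the pathway is among the 5. Over the 14 other enzymes of sterol synthesis, r ran from -0.16 to 0.975, with a median of 0.719. The median over all other tested genes was -0.015.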

How the data were processed

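RNA of whole testes from 3 Ctrl and 3 cKO mice at 5 dpp was sequenced by the authors from polyadenylated RNA. They aligned paired-end reads to GRCm38 (mm10) with HISAT2 2.0.5, counted with featureCounts and deposited 1 table of FPKM for 54532 genes; the annotation release is not given in the sources used here. Groups came from the sample labels. The study's methods call the 3 samples of a group biological replicates. FPKM times length were whole multiples of 1 step per sample in 100% of values (within 0.01), which gave the reads; 3 reads on a gene of 1 kb equal 0.158 to 0.194 FPKM, for counting error only. Genes that averaged 0.5 FPKM or more (16206) were fitted with limma 3.58.1 (R 4.3.3) on log2(FPKM + 1), 2 groups, trended empirical Bayes, two-sided, Benjamini-Hochberg over all genes, threshold 0.05. This scale understates changes of low genes. Tests were checked on simulated data with changes larger than those of the genes followed here, so the check does not cover changes of their size.

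Named genes were the 8 genes, *Srsf1*, list genes whose groups did not overlap, *Srebf2*, *Scap*, *Insig2*, *Star* and the 5 genes most like the 8. Some genes of the lists enter the counts and medians but are not reported here by name or drawn. Members and lists were chosen with earlier results of these data known. Transcript stretches of 50 bases were compared with the transcripts of all other genes in the reference annotation. Alternatives were another pseudocount, filters, scalings, weights, limma voom on recovered reads, a replicate block, coding genes alone, and leaving out each sample. Marker lists not named in the results were 6 peritubular myoid cell genes (median log2 fold change -0.23), 6 endothelial genes (0.35 over 5 tested) and 5 erythroid genes (0.69).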

Additional observations from a re-analysis of the deposited data

How the results depend on the processing

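Of 128 log2 fold changes of the 8 genes under 16 alternatives, 126 kept their direction, 0 passed the threshold and the lowest adjusted p by limma was 0.124. The exceptions were those of *Hmgcs1*, at 0.004 without Ctrl 2 and 0.043 without cKO 2, with a range from -0.19 to 0.04 when samples were left out. The other 7 genes kept their sign under every alternative, with *Insig1* between -0.66 and -0.28, *Fdft1* between -0.48 and -0.21, and *Cyp51* between 0.04 and 0.24. The number of the 8 genes lower without overlap was 2 to 7 when samples were left out. The share over all tested genes was taken only without Ctrl 3, at 18.7%. No gene of the 6 related lists was called under any of the 16 alternatives.

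Over all tested genes, the number called lower rose from 0 to 1 with TPM, 55 with sample weights, 61 with limma voom on recovered reads and 176 among protein-coding genes only, and was 0 to 15 when samples were left out. The number called higher rose from 0 to 4, 13, 22 and 37 under the same settings, was 1 without a mean-variance trend, and was 0 to 3 when samples were left out. Unadjusted p-values under 0.05 were given to 1508 genes lower and 1069 higher by limma. The cause of these shifts was not tested. Same-numbered Ctrl and cKO samples had deviations that correlated at 0.066, 0.016 and 0.088, so the numbers were not taken as pairs. With the replicate number as a block, 84 genes were called lower and 14 higher, none of them among the 8. The change of *Srsf1* passed the threshold with TPM (adjusted p 0.036), sample weights (0.029), the block (0.033), protein-coding genes only (0.016) and voom (0.026) by limma. The median log2 fold change over all genes was 0.003 in the main fit, 0.002 with TPM and 0.021 with quantile normalization.

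The median of the uptake list, -0.01, changed sign to 0.05 with a filter at 1 FPKM, without a filter and without cKO 3, to 0.03 with sample weights, to 0.002 with quantile normalization and to 0.02 without Ctrl 1 or cKO 2, and was -0.06 without cKO 1. The fatty acid list changed sign to 0.03 without Ctrl 1, and the isoprenoid list to 0.02 without Ctrl 2. The median of the other sterol synthesis enzymes stayed negative, from -0.32 to -0.10 when samples were left out and at -0.14 with sample weights. That of the sensing list fell to 0.04 without Ctrl 2 or cKO 2, and that of the efflux list to 0.02 without cKO 3. With 3 samples a group, the widest 95% interval among the 8 genes, that of *Sqle*, ran from -0.62 to 0.23.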
